A study of Mus musculus with 3 samples.

Results

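The ATF4 response to amino acid shortage and stress was followed in single CD4+ T cells through *Atf4*, *Atf5*, *Ddit3*, *Asns*, *Slc7a11*, *Vldlr*, *Chac1*, *Sesn2*, *Trib3* and *Nupr1*. They are 10 of the 31053 genes in the deposited count tables and were chosen by their levels, detecting cells and co-expression in these same libraries, which were already known, so every value below describes them and none tests them. The 3 libraries were made by droplet single-cell RNA sequencing of splenic cells from male C57BL/6 mice aged 5 to 10 weeks, after enrichment for naïve CD4+ T cells and a sort for 7AAD-CD3+CD4+ cells. The first (0hr-WT) held cells of *Ift20* f/f mice, which carry the floxed gene without Cre and are called WT here, kept in DPBS. The second (24hr-WT) held cells of the same genotype given antibodies against CD3 and CD28, both at 1 μg/mL, for 24 h. The third (24hr-KO) held cells of *Ift20* f/f CD4 cre mice stimulated in the same way, called IFT20-KO here. In the last genotype, Cre is driven by *Cd4* control sequences and acts from the double-positive stage of thymic development, so the cells had lacked IFT20, a protein of intracellular transport, before they were stimulated. Unstimulated IFT20-KO cells were not analysed here, the number of mice behind each library was not given in the sources used here, and with 1 library per condition no difference has a replicate.

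ATF4 is the transcription factor of the integrated stress response. When amino acids run short, unfolded protein accumulates, heme is lacking or virus is sensed, 1 of a family of kinases phosphorylates the initiation factor eIF2; most translation slows, while the *Atf4* mRNA is translated more. ATF4 then pairs with C/EBP and other bZIP proteins and raises genes for amino acid synthesis, uptake and charging, together with regulators that slow growth or favour cell death when stress lasts. In T cells the same program is known to be engaged by activation, when demand for amino acids rises. Because ATF4 is set largely by translation, mRNA counts show its gene and its targets, not its protein.

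ATF4 dimers bind the C/EBP-ATF response element (CARE), and its core TGATGNAA was searched on both strands in the 250 bases before each RefSeq transcription start (GRCm38.p6). It was found before at least 1 start of 5 of the 10 genes, against 3.91% of 27025 genes with a promoter in the same table. In the lists of other ATF4 targets used below, it was before 2 of 11 synthesis enzymes and 0 of 6 transporters. For tRNA charging and export it was 3 of 9 genes, and for stress regulators 4 of 14. Nothing is read from these shares. The matches of the 5 genes are shown with their surroundings because they are the letters by which these genes are usually recognised. Each is read along the gene's own strand with the core in capitals. Where the capitals begin with TT, the core lies on the opposite strand.
Asns: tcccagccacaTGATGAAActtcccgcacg
Slc7a11: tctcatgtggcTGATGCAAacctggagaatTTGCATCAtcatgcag
Chac1: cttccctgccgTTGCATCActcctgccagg
Nupr1: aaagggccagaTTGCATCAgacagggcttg
Vldlr: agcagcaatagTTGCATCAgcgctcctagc
The *Asns* run is chr6:7693214-7693243 on the minus strand, and its core begins 23 bases before the RefSeq start. This run lies within the GENCODE span of *Asns* and overlaps an annotated exon, whose transcript and strand were not checked. The *Slc7a11* run, chr3:50443645-50443690 on the minus strand, lies outside annotated exons and holds 2 cores that face each other. The *Chac1* run, chr2:119351038-119351067 on the plus strand, is outside exons as well. The *Nupr1* run is chr7:126625562-126625591 on the minus strand and the *Vldlr* run chr19:27216809-27216838 on the plus strand, the second before the later of 2 listed starts. Both runs lie within the GENCODE spans of their own genes and overlap annotated exons, whose transcript and strand were not checked. No core lay in these windows of *Atf4*, *Atf5*, *Ddit3*, *Sesn2* or *Trib3*. The endoplasmic reticulum stress element (ERSE, a CCAAT and a CCACG that are 9 bases apart), a site of the ATF6 branch of the unfolded protein response, was before 0 of the 10 genes and before 8 of 15 genes of a list for that branch and the IRE1 branch, against 0.13% of all genes. A match describes letters in a window and does not show binding.

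Of the deposited barcodes, 8031, 9903 and 13920 had more than 200 genes and under 15% mitochondrial UMIs (molecular barcodes, so that 1 UMI counts 1 captured transcript). They held 37133949, 116979076 and 106435143 UMIs, with medians of 4627, 12167 and 5014.5 UMIs per cell in 0hr-WT, 24hr-WT and 24hr-KO. Barcodes under 5000 UMIs made up 60.9%, 24.1% and 49.99% of the cells. *Ift20* itself, the targeted gene, was at 64.4, 76.0 and 6.60 counts per 1000000 UMIs (CPM) in the 3 libraries, low in the library labelled KO. All 8 CD4+ T cell markers were detected, the summed B cell markers were at 286, 144 and 155 CPM, and the myeloid list was at 0.214 to 1.18 CPM. Of all barcode sequences, 114, 137 and 197 occurred in both libraries of the 3 pairs.

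The first comparison asks how the genes stood in WT cells before and after stimulation. *Atf4*, *Atf5* and the genes for asparagine synthesis, cystine uptake, glutathione turnover and feedback were higher after 24 h, and *Ddit3* was lower in CPM. Of the 10 genes, 9 reached 10 UMIs in the 2 libraries together, and of these 8 were at least 2-fold higher and 0 at least 2-fold lower in 24hr-WT, where the shares over 13297 genes were 19.3% and 23%. Since these contrasts were known when the genes were chosen, nothing is read from that difference in shares. The median log2 ratio over all genes was -0.09, so the values are close to being relative to the typical gene.

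**Figure D1:**
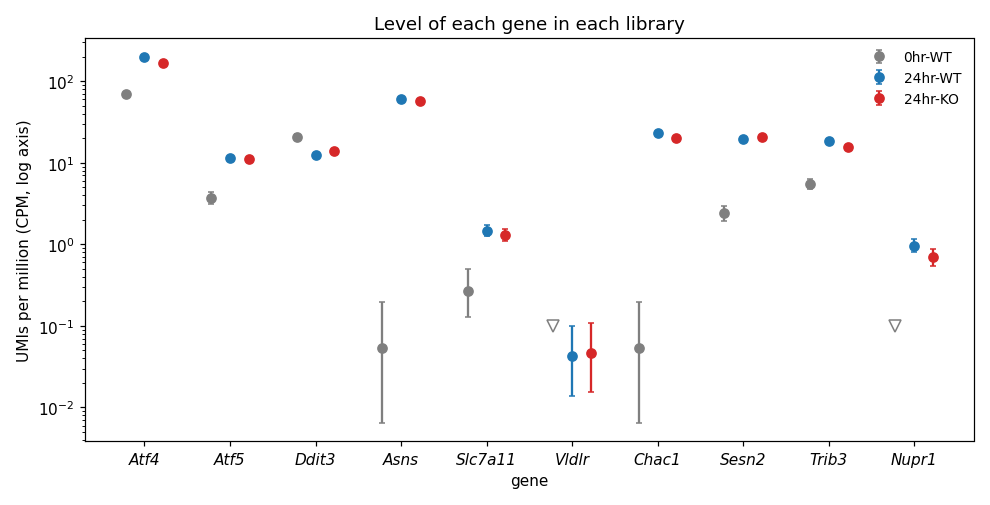
Level of the 10 genes (CPM on a log axis) in 0hr-WT (grey), 24hr-WT (blue) and 24hr-KO (red). Points are 1 library each, bars are 95% exact Poisson intervals for counting error, and open triangles mark the upper limit of a gene with 0 UMIs. *Asns* and *Chac1* lie near 0.0539 CPM in 0hr-WT and above 20 CPM in both stimulated libraries, while *Ddit3* is highest in 0hr-WT.

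*Atf4* lies at chr15:80255184-80257541 on the plus strand. Its level was 69.3 CPM in 0hr-WT, 201 CPM in 24hr-WT and 167 CPM in 24hr-KO, from 2574, 23471 and 17741 UMIs. Stimulated cells were thus the higher ones, and the 24hr-WT level exceeded the unstimulated level by 1.53 on the log2 scale (95% counting interval 1.47 to 1.59). Within bins of UMIs per barcode the log2 ratio was 0.45 (0.06 to 0.86) under 2000 UMIs and 0.76 (0.58 to 0.94) from 2000 to 5000. It was 1.05 (0.94 to 1.16) from 5000 to 10000 and 1.62 (1.38 to 1.87) from 10000 to 20000, so it was short of 2-fold in the 2 lowest bins. From 2000 to 5000 UMIs the all-gene median was 0.49. The barcodes of that bin had a median of 2.27% mitochondrial UMIs in 0hr-WT and 10.4% in 24hr-WT. The part of the mitochondrial share in the *Atf4* ratio was not tested. With every cell drawn down to 4000 UMIs, 23.9%, 49.6% and 44.6% of cells had an *Atf4* UMI.

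*Atf5*, a bZIP factor related to ATF4 and translated under the same control, is at chr7:44812256-44816658 on the minus strand. It stood at 3.74, 11.3 and 11.2 CPM in 0hr-WT, 24hr-WT and 24hr-KO, a log2 ratio of 1.60 (1.34 to 1.86) for stimulation, and of 0.73 (-0.02 to 1.61) among cells of 10000 to 20000 UMIs. The 2 stimulated libraries were alike to within counting error. Part of the gene overlaps *Nup62* and *Il4i1* on the other strand, and whether the counting used strand was not given in the sources used here.

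*Asns* encodes asparagine synthetase, which makes asparagine from aspartate and glutamine. It spans chr6:7675169-7693254 on the minus strand. Only 2 UMIs were found in 8031 unstimulated cells (0.0539 CPM), against 7033 UMIs in 24hr-WT (60.1 CPM) and 6048 UMIs in 24hr-KO (56.8 CPM). *Asns* was thus nearly absent before stimulation, and its log2 ratio was 10.12, with a counting interval of 8.27 to 13.17 whose width comes from the 2 UMIs. After stimulation 25.7% of WT cells held at least 1 UMI, with 2.76 UMIs per such cell.

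*Chac1*, a glutathione-degrading enzyme placed late in the ATF4 program, lies at chr2:119351229-119354381 on the plus strand and showed the same form. Its 2 UMIs in 0hr-WT came from 1 cell (0.0539 CPM), and the stimulated libraries held 2683 UMIs (22.9 CPM, WT) and 2135 UMIs (20.1 CPM, IFT20-KO). The log2 ratio for stimulation was 8.73 (6.88 to 11.78). *Chac2*, its constitutive relative, stood apart from it at 0.33 (0.14 to 0.53).

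*Slc7a11* encodes the cystine importer xCT, which supplies cysteine for glutathione, and *Vldlr* encodes a lipoprotein receptor. *Slc7a11* (chr3:49892526-50443614, minus strand) was at 0.269, 1.48 and 1.32 CPM from 10, 173 and 140 UMIs, and its log2 ratio for stimulation was 2.46 (1.54 to 3.54). The stimulated libraries were higher, but under 2% of cells in each library had a UMI. In 24hr-WT it was at 6.52 CPM under 2000 UMIs per barcode and 5.69 CPM from 2000 to 5000, against 1.06 to 1.56 CPM in deeper bins. Median mitochondrial shares of those lower bins were 10.0% and 10.4%. The log2 ratio was 4.91 (3.09 to 7.34) from 2000 to 5000 UMIs and 1.68 (0.12 to 3.40) from 5000 to 10000. The part of the mitochondrial share in these values was not tested. *Vldlr* (chr19:27216484-27254231, plus strand) had 0, 5 and 5 UMIs in all. That is too few for a ratio, and a count of 0 in 8031 cells still allows, at 3 counts of the total, up to 0.0374% of cells with a UMI.

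*Sesn2*, a sestrin that restrains mTORC1 when leucine is low, lies at chr4:132492032-132510501 on the minus strand. It was at 2.40 CPM before stimulation, 19.8 CPM in 24hr-WT and 20.8 CPM in 24hr-KO. Both stimulated libraries were higher, with a log2 ratio of 3.04 (2.74 to 3.37). The other sestrins did not share this: *Sesn1* had a log2 ratio of -2.40 (-2.49 to -2.32) and *Sesn3* was at -0.23.

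*Trib3*, a pseudokinase that binds AKT and ATF4 and feeds back on the pathway, is at chr2:152337422-152344032 on the minus strand. Its levels were 5.57, 18.5 and 15.8 CPM in 0hr-WT, 24hr-WT and 24hr-KO, and its log2 ratio for stimulation was 1.73 (1.53 to 1.95). Both stimulated libraries were higher than 0hr-WT, the only unstimulated library here. Among its relatives, *Trib1* was at 2.03 (1.72 to 2.35) and *Trib2* at -2.46 (-2.54 to -2.37).

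*Nupr1*, a small stress-induced chromatin regulator, spans chr7:126623249-126630861 on the minus strand. No UMI was found in 0hr-WT, against 113 UMIs in 24hr-WT (0.966 CPM) and 74 UMIs in 24hr-KO (0.695 CPM). Relative to a floor of 3 counts in 0hr-WT, 24hr-WT was 11.96-fold higher. The lower counting limit of the log2 ratio was 3.26. At most 0.838% of the cells of a library held a *Nupr1* UMI.

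*Ddit3* encodes CHOP, the factor through which lasting stress promotes cell death, and lies at chr10:127290774-127296288 on the plus strand. It differed from the other genes: 21.005 CPM in 0hr-WT, 12.4 CPM in 24hr-WT and 14.1 CPM in 24hr-KO. Unstimulated cells were the highest here, and the log2 ratio for stimulation was -0.76 (-0.88 to -0.63), short of 2-fold. The direction depends on the scale, since UMIs per 1000 cells went from 97.1 to 147, a log2 ratio of 0.60 without scaling, while the median of all genes went to 1.26 on that scale. More RNA per cell and deeper capture cannot be told apart here. Among cells of 5000 to 10000 UMIs the levels were 21.3 CPM in 0hr-WT and 19.3 CPM in 24hr-WT, a log2 ratio of -0.14 (-0.39 to 0.11), while among cells of 10000 to 20000 UMIs they were 19.4 and 12.3 CPM (-0.66, -1.12 to -0.17). From 2000 to 5000 UMIs the ratio was -0.46 (-0.96 to 0.014), while the all-gene median of that bin was 0.49. Under 2000 UMIs, with 16 and 43 UMIs, the ratio was 0.31 (-0.55 to 1.24). A second gene model, *AC144852.1*, lies within the first exons of *Ddit3* on the same strand and held 0 UMIs in all libraries; reads that lie wholly in the shared exons could have been assigned to neither.

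**Figure D2:**
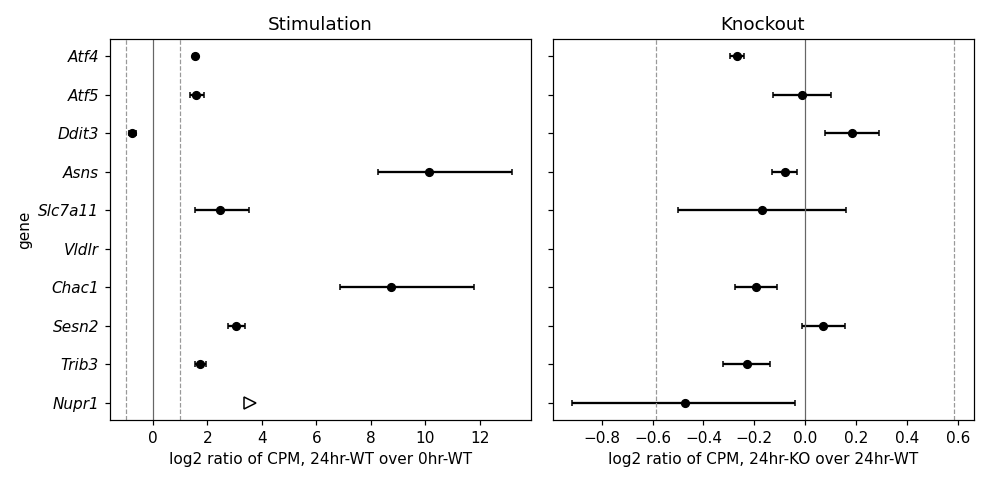
Log2 ratio of CPM for each gene, 24hr-WT over 0hr-WT (left) and 24hr-KO over 24hr-WT (right), with 95% exact binomial intervals for counting error. Dashed lines mark 2-fold (left) and 1.5-fold (right), the open triangle is *Nupr1* against a floor of 3 counts, and *Vldlr* is left out. All genes shown but *Ddit3* lie right of 1 on the left, and the points on the right lie between -0.47 and 0.18.

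The other genes of the pathway were taken from lists chosen with earlier results of these data known, and each is described by its count and median beside the 19.3% of all genes that were at least 2-fold higher, the 23% that were at least 2-fold lower and the all-gene median of -0.09. Of the enzymes of serine, one-carbon, proline, alanine, cysteine and branched-chain amino acid metabolism, 11 of 11 with enough UMIs were at least 2-fold higher in 24hr-WT, with a median log2 ratio of 3.09. *Cth*, which makes cysteine by transsulfuration, went from 0 to 1876 UMIs. That is 198.5-fold against the floor of 3 counts, with a lower counting limit of 7.33 for the log2 ratio. *Bcat1*, the cytosolic branched-chain aminotransferase, had a log2 ratio of 7.48. *Psat1* of serine synthesis stood at 23.1, 326 and 299 CPM in 0hr-WT, 24hr-WT and 24hr-KO.

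Amino acid transporters were at least 2-fold higher in 9 of 10 cases (median 1.60). *Slc7a3* for cationic amino acids went from 1 to 1466 UMIs (log2 ratio 8.86, 6.38 to 14.17) and the glycine transporter *Slc6a9* from 4 to 1081 UMIs (log2 ratio 6.42), while *Slc38a2*, an ATF4 target in other settings, was at -0.74 (-0.80 to -0.68). Aminoacyl-tRNA synthetases and the tRNA exporter *Xpot* were at least 2-fold higher in 11 of 13 cases, all 13 above 0 with a median of 1.66, between 0.73 for *Sars* and 2.03 for *Cars*.

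The list of stress regulators was mixed, with 8 of 14 at least 2-fold higher, 3 at least 2-fold lower, a share near that of all genes, and a median of 1.29. *Eif4ebp1*, the translation repressor 4E-BP1, was at 4.63 (4.50 to 4.76), and *Atf3*, a bZIP repressor, went from 2 to 1934 UMIs (8.26, 6.41 to 11.31). Lower were *Gadd45a* at -1.79, *Ddit4*, an mTORC1 inhibitor, at -1.30 and *Ppp1r15a*, which directs the eIF2 phosphatase and also counts upstream of ATF4, at -1.11. Of the bZIP partners, 3 of 8 were at least 2-fold higher and 1 lower (median 0.30). Among them *Cebpb* was at 2.18 (2.07 to 2.30), *Cebpg* at 0.58 and *Nfe2l2*, which encodes NRF2, at -1.84.

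Upstream of ATF4, 5 of 15 genes were at least 2-fold higher and 3 at least 2-fold lower (median 0.19), not far from the shares of all genes, and nothing is read from the counts. The eIF2 subunit gene *Eif2s1* was at 1.33 and the kinase genes *Eif2ak2* (PKR) at -1.30 and *Eif2ak3* (PERK) at -1.27. For the IRE1 and ATF6 branches, 9 of 18 genes were at least 2-fold higher and 0 lower (median 1.08), from *Sdf2l1* at 2.70 to *Dnajb9* at -0.75. Of the NRF2 list, 3 of 10 were at least 2-fold higher and 1 lower (median 0.65), again not far from the shares of all genes. Among the sestrin and GATOR genes around *Sesn2*, 1 of 16 was at least 2-fold higher and 2 were lower (median -0.03).

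The second comparison asks whether loss of IFT20 changed these genes in stimulated cells. It shares the 24hr-WT library with the first, so the ratios of the 2 comparisons are not independent. None of the 10 genes was 1.5-fold higher or 1.5-fold lower in 24hr-KO, where the shares over 13504 genes were 13.4% and 3.27%. Their median log2 ratio was -0.13, against 0.14 over all genes. Both the count and the median include *Vldlr*, which had only 5 UMIs in each of the 2 libraries.

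*Atf4*, at 201 CPM in 24hr-WT and 167 CPM in 24hr-KO, had a log2 ratio of -0.27 (-0.30 to -0.24). *Trib3* was at -0.23 (-0.32 to -0.14), *Chac1* at -0.19 (-0.28 to -0.11) and *Asns* at -0.08 (-0.13 to -0.03). Over all cells, these 4 and *Nupr1*, at -0.47 (-0.92 to -0.04), were lower in IFT20-KO beyond counting error, each by less than 1.5-fold. For *Asns* this held in no single bin of UMIs per barcode, as given below. *Ddit3* was higher, at 0.18 (0.08 to 0.29), close to the 0.14 of the median over all genes. In 5 bins of rising UMIs per barcode *Ddit3* was at -0.32, 0.13, -0.012, 0.029 and 0.18, and all 5 intervals included 0. The intervals of *Atf5*, *Sesn2* and *Slc7a11* over all cells included 0. *Slc7a11*, at -0.17 over all cells, was at -1.55, -0.66, -0.69, -0.38 and -0.59 in 5 bins of rising UMIs per barcode, from 5 to 88 UMIs per library and bin, and all 5 intervals included 0.

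The 2 stimulated libraries differ in UMIs per cell, so the levels were also compared within bins of UMIs per barcode. In 24hr-WT *Atf4* stood at 99.7 CPM under 2000 UMIs and 232 CPM at 20000 UMIs or more, higher in each deeper bin. In 24hr-KO it was at 153 CPM in the lowest bin, 132 CPM in the next and 200 CPM in the highest. The *Atf4* ratio of the genotypes was 0.62 (0.37 to 0.87) in the lowest bin, -0.04 (-0.13 to 0.06) between 5000 and 10000 UMIs and -0.21 (-0.28 to -0.14) in the highest, so the direction was not the same in all bins. The lowest bin was not alike in the 2 libraries. Its smallest barcode had 709 UMIs in 24hr-WT and 1493 in 24hr-KO, and its median mitochondrial shares were 10.0% and 4.75%. The part of these differences in the *Atf4* ratio was not tested.

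*Asns* also changed its direction by bin. Its log2 ratio was 0.41 (0.01 to 0.81) under 2000 UMIs and 0.22 (0.04 to 0.40) from 5000 to 10000. Among barcodes of 2000 to 5000 UMIs *Asns* was at 31.1 CPM in 24hr-WT and 50.3 CPM in 24hr-KO. That is a log2 ratio of 0.69 (0.36 to 1.04), past 1.5-fold. Above 10000 UMIs the genotypes were within counting error of each other, at 62.1 and 61.0 CPM between 10000 and 20000 UMIs. The barcodes of 2000 to 5000 UMIs had a median of 10.4% mitochondrial UMIs in 24hr-WT and 5.75% in 24hr-KO. Between 10000 and 20000 UMIs these medians were 1.24% and 1.04%. The part of the mitochondrial share in the *Asns* difference was not tested.

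*Sesn2* had its highest level in the bin of 2000 to 5000 UMIs, 37.5 CPM in 24hr-WT and 32.2 CPM in 24hr-KO. Its lowest level was in the next deeper bin, 11.2 and 14.7 CPM. Between 10000 and 20000 UMIs, *Trib3* was at -0.27 (-0.39 to -0.15) and *Chac1* at -0.16 (-0.27 to -0.06). *Nupr1* was lower in IFT20-KO in each of the 4 bins above 2000 UMIs, where the log2 ratios lay between -1.28 and -0.92, from 3 to 71 UMIs per library and bin, and 2 of the 4 intervals included 0. Under 2000 UMIs it had 2 UMIs in 24hr-WT and 4 in 24hr-KO. In the 10000 to 20000 bin it was at 0.972 CPM in 24hr-WT and 0.513 CPM in 24hr-KO (-0.92, -1.58 to -0.29).

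**Figure D3:**
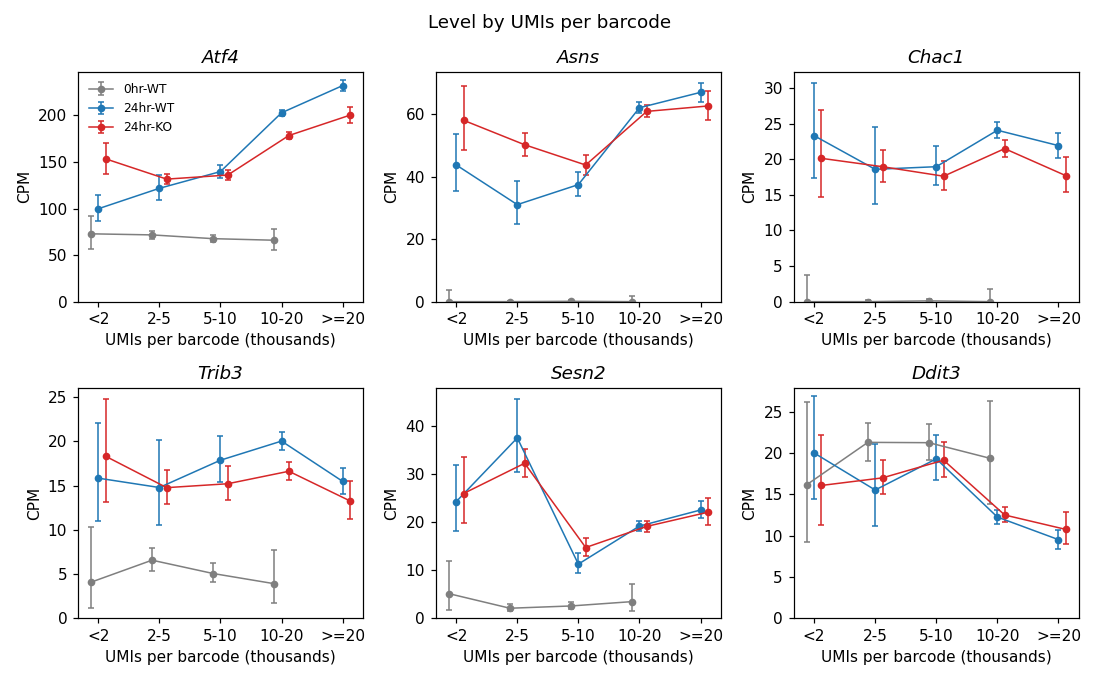
Level (CPM) of 6 genes among barcodes grouped by UMIs per barcode in 0hr-WT (grey), 24hr-WT (blue) and 24hr-KO (red), with 95% exact Poisson intervals. The highest bin of 0hr-WT, with 4 barcodes, is left out. *Asns* is higher in 24hr-KO than in 24hr-WT in each bin under 10000 UMIs, at 50.3 against 31.1 CPM between 2000 and 5000, and not above 10000 UMIs. *Ddit3* is lowest in the highest bin of both stimulated libraries, at 9.51 and 10.8 CPM.

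The shares of all genes past 1.5-fold in 24hr-KO were 13.4% higher and 3.27% lower. Higher were 1 of 15 upstream genes, 1 of 12 enzymes, 1 of 10 transporters and 3 of 16 sestrin and GATOR genes, with 0 lower. The 8 bZIP partners and 14 stress regulators are lists that share *Cebpb*, *Atf3* and *Jdp2*. In both lists *Jdp2* was the 1 gene higher and *Atf3* the 1 gene lower. *Jdp2* had 9 UMIs in 24hr-WT and 13 in 24hr-KO, a log2 ratio of 0.67 (-0.67 to 2.07). The NRF2 list had 1 of 10 lower (-0.67) and the relatives of the 10 genes 1 of 7 (-0.99), with 0 higher. For the IRE1 and ATF6 branches it was 0 of 18. Nothing is read from these counts. *Atf3* was lower in IFT20-KO, at 16.5 CPM in 24hr-WT and 8.53 CPM in 24hr-KO, a log2 ratio of -0.95 (-1.07 to -0.84). The synthetic enzymes lay between -0.19 for *Pycr1* and 0.23 for *Gpt2* among genes with at least 100 UMIs, and 0 of 13 tRNA genes passed 1.5-fold. *Eif2ak3* was higher, at 0.76 (0.59 to 0.93), as were *Sesn1* at 0.66 (0.57 to 0.74) and *Castor2*, an arginine sensor of mTORC1, at 0.86 (0.67 to 1.05).

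How the genes were spread over cells was described within each library after every cell was drawn down to 4000 UMIs, which left 7604 cells of 24hr-WT and 7268 of 24hr-KO. At this depth 66.3% of 24hr-WT cells, 62.6% of 24hr-KO cells and 32.5% of the 5374 0hr-WT cells held a UMI of at least 1 of the 10 genes. At least 3 of the genes were found together in 5.73%, 4.90% and 0.0744% of cells. As a background, the B cell gene *Cd79a* had a UMI in 0.335%, 0.171% and 0.124% of the cells of 0hr-WT, 24hr-WT and 24hr-KO, and *Cd79b* in 0.968%, 0.224% and 0.468%. Shares of *Slc7a11*, *Vldlr* and *Nupr1* in the stimulated libraries, 0.0132% to 0.4997%, were of the order of these background shares, and no difference between cells is read from them. In 24hr-WT, *Slc7a11* at 0.4997% (0.354 to 0.685%) and *Nupr1* at 0.381% (0.256 to 0.547%) lay above both B cell genes, with intervals that overlapped that of *Cd79b* (0.130 to 0.358%), while in 24hr-KO both lay below *Cd79b*. In both libraries the other members were at 4.21% or above. In 0hr-WT the shares of *Asns*, *Chac1*, *Slc7a11* and *Sesn2*, 0.0186% to 0.893%, were below that of *Cd79b*.

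Several of the genes were uneven among stimulated cells. Overdispersion, the variance beyond counting noise divided by the squared mean, was 3.14 for *Asns*, 2.78 for *Chac1* and 2.35 for *Sesn2* in 24hr-WT, against a median of 0.133 over 7454 genes. In 24hr-KO it was 2.50, 3.01 and 1.14, against a median of 0.142. *Atf5* was at 1.44 in 24hr-WT and 2.40 in 24hr-KO, *Trib3* at 1.51 and 0.828, and *Ddit3* at 0.710 and 0.594. *Atf4* was more even, at 0.299 and 0.311. For *Asns*, the upper 10% of cells held 75.6% of its UMIs in 24hr-WT and 72.9% in 24hr-KO. Such a share rises with sparsity alone, and *Asns* had a UMI in 15.7% and 15.85% of these cells. *Ddit3* in 0hr-WT, with an overdispersion of 0.0865, had 100% of its UMIs in the upper 10%. The share is therefore not read as unevenness.

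Pairs of genes within cells were weakly related, and in counts this sparse a weak correlation is no finding by itself. Over the 7 genes with at least 200 UMIs at this depth, the 15 pairs without *Ddit3* had a median Pearson r of 0.051 over 7604 cells of 24hr-WT and 0.038 over 7268 cells of 24hr-KO, cells that share their library and its batch. The highest was *Chac1* with *Trib3*, at 0.12 and 0.10, found together in 106 cells of 24hr-WT. The 6 pairs with *Ddit3* had medians of 0.0069 and -0.00033.

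**Figure D4:**
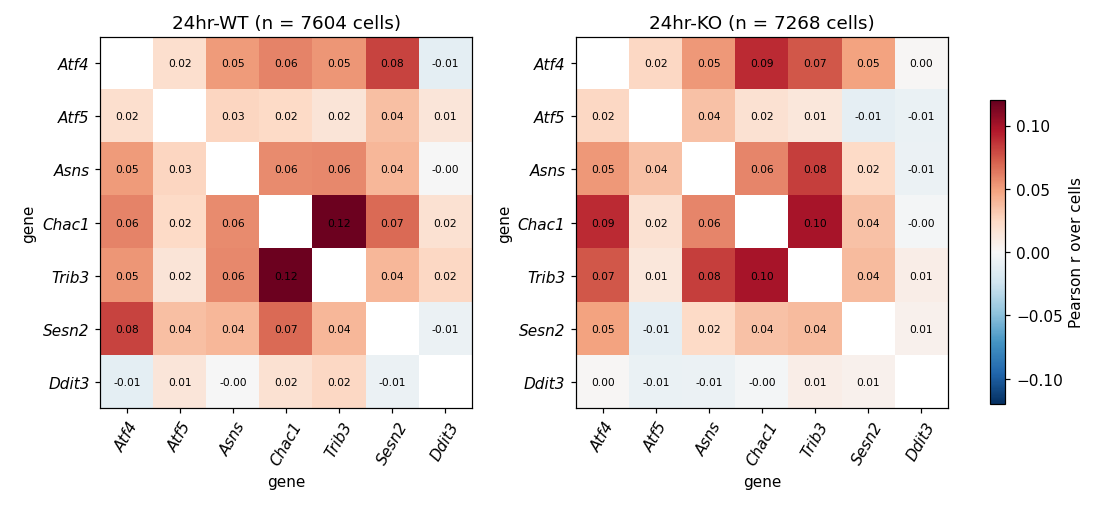
Pearson correlation of log counts over cells of 24hr-WT (left) and 24hr-KO (right) for 7 genes, each cell drawn down to 4000 UMIs. Colour and number give r, and the diagonal is blank. *Chac1* and *Trib3* have the highest value in both, 0.12 and 0.10, and the row of *Ddit3* stays near 0.

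Cells with an *Asns* UMI were set beside those without. In 24hr-WT, *Trib3* was found in 10.2% (8.50 to 12.02%) of the 1191 cells with *Asns* and 6.53% (5.94 to 7.17%) of the 6413 without, and *Chac1* in 10.7% and 7.39%. The same comparison in 24hr-KO gave 9.72% and 5.18% for *Trib3* and 9.81% and 6.15% for *Chac1*. Both genes were thus seen more often where *Asns* was seen, in either genotype.

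Genes outside the 10 were not all alike in this. Between 24hr-WT cells without *Asns* and those with at least 1 UMI, *Psat1* went from 60.7% to 76.9% and *Cebpb* from 23.5% to 34.4%. *Cebpg* was at 12.4% and 12.5% and *Atf3* at 5.19% and 5.79%, while *Ddit3*, a member, was at 5.41% and 4.87%. In the 122 cells with 3 or more *Asns* UMIs, *Psat1* was found in 86.1% (78.6 to 91.7%) and *Cebpb* in 43.4%. *Ddit3* was found in 5.41% (4.87 to 5.99%) of the cells without *Asns* and in 5.74% (2.34 to 11.5%) of these 122. *Hspa5*, the chaperone BiP of the unfolded protein response, was at 74.9% and 77.9%, and both genes were within counting error. Cells with *Asns* had a median of 14662 UMIs before they were drawn down and those without 13788, a gap whose part in these shares was not tested.

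**Figure D5:**
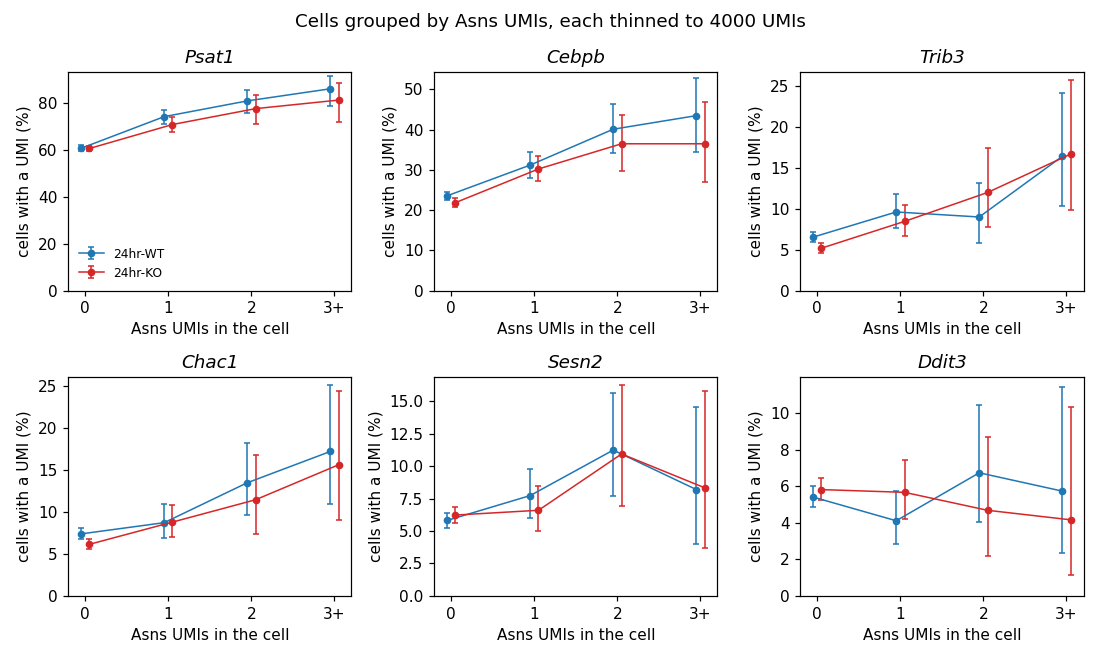
Percent of cells with a UMI of 6 genes, for cells of 24hr-WT (blue) and 24hr-KO (red) grouped by their *Asns* UMIs after each cell was drawn down to 4000 UMIs. Bars are 95% exact Clopper-Pearson intervals. *Psat1* goes from 60.7% to 86.1% in 24hr-WT between cells without *Asns* and cells with 3 or more UMIs, while *Ddit3* is at 5.41% and 5.74%.

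The genes most like each member were ranked by Pearson r over the same cells. For *Asns* these were *Eif4ebp1*, *Psat1*, *Phgdh*, *Shmt2* and *Pck2* in 24hr-WT, with r from 0.17 to 0.14, and *Eif4ebp1*, *Pck2*, *Psat1*, *Psph* and *Shmt2* in 24hr-KO. *Chac1* ranked with *Eif4ebp1*, *Mthfd2*, *Atf3*, *Nr4a1* and *Cebpb* in 24hr-WT (r 0.15 to 0.13), and *Trib3* with *Mthfd2*, *Eif4ebp1*, *Chac1*, *Slc3a2* and *Cebpb* (0.16 to 0.10). Among the 20 nearest genes, *Mthfd2* was shared by 5 members in 24hr-WT and 4 in 24hr-KO, *Eif4ebp1* by 4 and 5, and *Eif2s2* by 5 in 24hr-WT.

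The neighbours of *Atf4* itself were led by the initiation factor gene *Eif1*, at 0.21 in 24hr-WT and 0.16 in 24hr-KO. Next came *Hspd1*, *Srm*, *Hnrnpab* and *Tomm20* in 24hr-WT, and *Srm*, *Mthfd2*, *Hnrnpab* and *Eif5a* in 24hr-KO. *Mthfd2*, a neighbour of *Asns*, *Chac1* and *Trib3* too, was at 0.13 with *Atf4* in both libraries. *Sesn2* was nearest to *Cdkn1a*, the cell cycle inhibitor p21, at 0.10 in 24hr-WT, and to *Eea1* at 0.07 in 24hr-KO. *Ddit3* was nearest to *Ecm1* and *Klf2* in 24hr-WT and to *Ccr7* in 24hr-KO, at 0.06 each. *Klf2* and *Ccr7* are genes of quiescent or recirculating T cells, and *Ccr7* was among the most negative genes for *Atf4*, at -0.17, and for *Chac1*, at -0.11, in 24hr-WT. The level of *Ddit3* at this depth went with UMIs per cell at r = -0.06 in 24hr-WT and that of *Atf4* at 0.14, and the part of depth in these neighbours was not tested.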

How the data were processed

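The 3 libraries of CD4+ T cells were 0hr-WT, 24hr-WT and 24hr-KO, with 1 library per condition. The authors aligned reads and counted UMIs per gene and barcode with Cell Ranger, given as 3.1.0 in the file headers, on mm10 per the submitters' processing notes, and deposited the counts of called barcodes without normalization. The methods name a 3′ kit and the labels a 5′ kit, which capture opposite transcript ends; whether strand was used is not given in the sources used here. The genes and lists were chosen with earlier results of these data known.

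A barcode was kept if it had over 200 genes and less than 15% of its UMIs in mitochondrial genes. UMIs were summed per library and expressed per 1000000 (CPM) with exact Poisson intervals, ratios had exact binomial intervals and shares exact Clopper-Pearson intervals, all at 95% and for counting error only. A gene at 0 was set to 3 counts for a ratio. A ratio counted as past the threshold at 2-fold (stimulation) or 1.5-fold (knockout) with at least 10 UMIs over both libraries. No test was made. Depth was equalised by drawing each cell down to 1400 or 4000 UMIs, shallower cells being left out; 4000 left 5374, 7604 and 7268 cells. Doublets were not called, and no cells were clustered.

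Listed genes are named if their log2 ratio was 1 of the 4 greatest or 4 smallest in a list and they had at least 100 UMIs, and neighbours if among the 5 highest r over cells; some genes that met these rules are not reported here. *Psat1*, *Cebpg*, *Jdp2*, *Sesn3*, *Hspa5*, and the negative neighbours of *Atf4* and *Chac1*, were named after their values were seen. The genes drawn by depth and by *Asns*, the motif windows and the check for overlapping genes were chosen then too. Lists of 8 CD4+ T cell, 6 CD8 or natural killer cell, 6 B cell, 8 myeloid, 5 erythroid and 3 platelet markers were used as checks. The B cell and myeloid lists came in at the levels in the text, and the CD4+ T cell list at 3728.8 to 4758.5 CPM. The CD8 or natural killer, erythroid and platelet lists were at 13.3 to 34.1, 0 to 0.0094 and 0.135 to 0.188 CPM. Positions are from GENCODE M21 (GRCm38), in which 30934 of 31053 gene identifiers were found, and promoter sequences from RefSeq, which held all 10 genes. For the alternatives, scaling used size factors by median ratio, no factor at all, or the average over cells of each gene's fraction. Cells were taken without any filter, with over 1000 genes and less than 10% mitochondrial, from 3000 UMIs up, drawn down to 1400 UMIs, in bins of depth (for stimulation, added after the data were seen), or without barcodes shared between libraries. The minimum was set to 1 or 100 UMIs, and Spearman's rho replaced Pearson's r. The calculations used pandas 2.3.3, scipy 1.17.1, numpy 2.4.6 and matplotlib 3.10.9 under Python 3.11.15 and were tested on simulated data.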

Additional observations from a re-analysis of the deposited data

How the results depend on the processing

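For stimulation, 8 genes were at least 2-fold higher and 0 at least 2-fold lower with each other scaling, barcode filter, minimum of UMIs, cells drawn down to 1400 UMIs and shared barcodes removed. Bins of UMIs per barcode, added for stimulation after the data were seen, put *Atf4* short of 2-fold under 2000 UMIs (0.45) and from 2000 to 5000 (0.76), and *Atf5* from 10000 to 20000 (0.73). *Ddit3* changed sign without scaling (0.60) and under 2000 UMIs (0.31), and no other stimulation ratio did, bins with no UMI in 0hr-WT and that of 20000 or more being left out. For the knockout, 0 genes past 1.5-fold in either direction became 7 lower without scaling, where the median of all genes was -0.49, 1 lower (*Nupr1*) with median-ratio factors, 1 lower (*Nupr1*) with barcodes of at least 3000 UMIs, 1 lower (*Vldlr*, with 5 UMIs in each library) by the mean of per-cell fractions, and 1 higher (*Slc7a11*) with cells drawn down to 1400 UMIs.

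Knockout log2 ratios that changed sign were, without scaling, *Ddit3* (-0.45) and *Sesn2* (-0.56), and with median-ratio factors *Sesn2* (-0.10). With barcodes of at least 3000 UMIs it was *Sesn2* (-0.0045), and with cells drawn down to 1400 UMIs *Asns* (0.095) and *Slc7a11* (0.78). By UMIs per barcode they were *Atf4* (0.62), *Atf5* (0.65), *Ddit3* (-0.32), *Asns* (0.41) and *Trib3* (0.21) under 2000, *Atf4* (0.11), *Atf5* (0.20), *Asns* (0.69), *Chac1* (0.028) and *Sesn2* (-0.22) from 2000 to 5000, *Asns* (0.22) and *Ddit3* (-0.012) from 5000 to 10000, *Atf5* (0.10) and *Sesn2* (-0.0049) from 10000 to 20000, and *Sesn2* (-0.030) from 20000. The cause was not tested. The reported intervals of *Atf5*, *Sesn2* and *Slc7a11* included 0. No ratio of *Vldlr* is given, a choice made after its values were seen that leaves out 5 alternative values, 3 of them with a changed sign. Of the alternative values kept, 171 stayed within counting error, or within 1.5 times for a count, 123 moved further with no change of sign and 23 changed sign. No paired analysis was possible because each condition had 1 library and no result comes from a test.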
